A study of Mus musculus with 8 samples.

Results

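The 9 genes described here are protein-coding neighbours on mouse chromosome 6, measured across the kidneys of a pair of mouse strains: Thnsl2, Fabp1, Smyd1, Cd8b1, Cd8a, Rmnd5a, Kdm3a, Reep1 and Mrpl35. They were picked because neighbours in this stretch differed between the strains in opposite directions on these same arrays, so their strain differences are given as a description, with no test. All 13 probes that carry one of the 9 gene names were taken, out of 56605 probes for 36610 gene names that were not controls. The probes lie within 685 kb of each other on the mm9 build. A probe entered the fits if some group had it well above background on each of its 2 arrays, which 11 of the 13 probes, for 8 of the 9 genes, did. The exceptions were the only Reep1 probe and 1 of 2 Smyd1 probes.

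The study measured messenger RNA in the kidney cortex of male mice on 1-colour Agilent arrays. SAMP1 mice are a line of senescence-accelerated mice and SAMR1 mice the resistant line they are compared with, and the labels give no other allele or treatment. The 4 groups were SAMR1 at 10 weeks, SAMR1 at 50 weeks, SAMP1 at 10 weeks and SAMP1 at 50 weeks of age. Each group held 2 mice with 1 array each, from 10 mg of tissue and 50 ng of labelled RNA. With 2 arrays per group the precision is limited. The p-values set a difference against the spread between arrays of the same group, pooled over the 4 groups and adjusted with the spread of all fitted probes. Every value below is log2 of a probe's processed signal minus the 75th percentile of its array, so it can be compared between arrays for 1 probe and not between probes.

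The genes share a location and no common pathway. Fabp1 encodes the liver-type fatty acid binding protein, a cytosolic carrier of long-chain fatty acids that in the kidney is known from the proximal tubule and is a target of the nuclear receptor PPAR alpha. Thnsl2 encodes a threonine synthase-like protein that acts as a phosphate lyase. Cd8a and Cd8b1 encode the chains of the CD8 co-receptor, which marks cytotoxic T cells, and the alpha chain also occurs as a homodimer on other immune cells. Mrpl35 encodes a protein of the large subunit of the mitochondrial ribosome, Rmnd5a a RING subunit of the CTLH ubiquitin ligase, Kdm3a a demethylase of histone H3 lysine 9 that is induced by hypoxia, Smyd1 a methyltransferase of striated muscle, and Reep1 a protein that shapes the tubules of the endoplasmic reticulum.

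The results turn on 5 probes, each 60 bases long, whose letters say which stretch of each transcript was read. They are written as the scanner files give them, and 1 of the 2 Cd8a probes is shown whole. For Fabp1 the first 43 bases are shown, and the capitals mark the TAG stop codon that ends its reading frame. For the rest the first 30 bases are shown, with nothing in capitals.
Thnsl2, A_52_P487599: tggaaagattgtgtagtgaacccctcagaa
Fabp1, A_51_P487818: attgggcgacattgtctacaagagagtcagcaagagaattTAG
Cd8a, A_52_P150547: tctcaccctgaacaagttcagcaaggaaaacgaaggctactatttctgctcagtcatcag
Cd8a, A_52_P443334: cctgaaggaactaagagtcacccatggtcc
Mrpl35, A_52_P223407: tgccaaccttatacaatcttatacacgagc
On mm9 these probes lie on chromosome 6 at 71078597 to 71078656 on the minus strand for Thnsl2 and at 71154906 to 71154965 on the plus strand for Fabp1. The Cd8a probes lie at 71323885 to 71323944 and at 71328911 to 71328970, both on the plus strand, and the Mrpl35 probe at 71763258 to 71763317 on the minus strand. Exon, intron and UTR positions were not analysed here. None of the 13 member probes shared a run of 20 bases, on either strand, with any other probe of the array. Their GC content ran from 35% to 58.3%, with a median of 38.3%, against a median of 41.7% over all 56605 probes.

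The promoter of Fabp1 is shown because the gene has the lowest SAMP1 level relative to SAMR1 among the members. It is the RefSeq sequence of GRCm38.p6, 250 bases before to 50 bases after the start of the gene, chromosome 6, 71199629 to 71199928 on the plus strand. Capitals mark matches to 3 motifs searched on both strands.
Fabp1 promoter: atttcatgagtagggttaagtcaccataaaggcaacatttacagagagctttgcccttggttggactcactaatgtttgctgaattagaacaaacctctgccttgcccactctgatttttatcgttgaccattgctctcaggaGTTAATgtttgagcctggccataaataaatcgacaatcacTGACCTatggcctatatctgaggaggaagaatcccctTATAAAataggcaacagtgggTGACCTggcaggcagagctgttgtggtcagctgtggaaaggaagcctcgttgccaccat
The half-site bound by nuclear receptors such as PPAR alpha, TGACCT, began at -67 and again at -9 from the start of the gene. A half-site of HNF1, a factor of liver and kidney, was searched as GTTAAT and began at -107. The TATA box, searched as TATAAA, began at -30. Among 32851 RefSeq promoters of the same length, 16.3% held the nuclear receptor half-site, 7.1% the HNF1 half-site and 13.6% the TATA box letters, on either strand. Of the 8 members with a promoter in the table (Cd8b1 has no entry), Smyd1 was the only other one with a match, to the TATA box letters. A match describes letters of the reference sequence and not a bound site.

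Each array had from 61.4% to 64.4% of its spots well above background. Arrays of the same group correlated at 0.9923 to 0.9945 over the kept probes and arrays of different groups at 0.9752 to 0.9875. The labelled tissue was checked on 9 kidney markers, among them Lrp2, Slc34a1 and Umod, and all 9 were well above background on all 8 arrays. The median strain difference of these 9 was -0.03, and their SAMP1 and SAMR1 arrays overlapped for every one. Over the whole array, the SAMP1 and SAMR1 arrays did not overlap for 13.2% of the 35375 kept probes. In 6.39% the SAMP1 arrays were all higher and in 6.86% all lower. Limma called 3.01% of the kept probes between the strains at 10 weeks, 4.59% at 50 weeks and 7.71% averaged over ages, with adjusted p under 0.05. The members' own count was 7 of 11 probes without overlap, 4 higher and 3 lower in SAMP1. Since the members were chosen on this contrast, nothing is read from that count.

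Fabp1, the fatty acid carrier, was the member with the lowest level in SAMP1 relative to SAMR1. Its probe read 0.84 and 0.73 on the SAMR1 10-week arrays and 1.16 and 1.17 on the SAMR1 50-week arrays. It read -4.38 and -4.5 on the SAMP1 10-week arrays and -4.23 and -4.51 on the SAMP1 50-week arrays. All 4 SAMP1 arrays lay below all 4 SAMR1 arrays, with a gap of 4.96 between the nearest arrays. The mean was 0.97 ± 0.222 (SD, n = 4) in SAMR1 and -4.4 ± 0.13 (SD, n = 4) in SAMP1, a difference of -5.38, or a 41.6-fold lower signal in SAMP1. It was -5.22 at 10 weeks and -5.54 at 50 weeks. Among the 35375 kept probes, only 7 had a lower SAMP1 level relative to SAMR1, which places Fabp1 at rank 8. The probe was well above background on all 8 arrays, although its processed signal in SAMP1, 8.74 to 10.4, was far below the 345 to 434 of SAMR1. With normexp background correction of the mean signal, which adds an offset of 50 to every spot, the same difference was -2.71. Within the SAMP1 strain the ages overlapped, and the order of the 4 group means was SAMR1 at 50 weeks, SAMR1 at 10 weeks, SAMP1 at 50 weeks and SAMP1 at 10 weeks.

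Thnsl2, which lies 76.3 kb before Fabp1 on the chromosome, was lower in SAMP1 as well. It read 3.97 and 3.85 in SAMR1 at 10 weeks, 3.6 and 3.42 in SAMR1 at 50 weeks, 2.03 and 1.81 in SAMP1 at 10 weeks and 1.56 and 1.34 in SAMP1 at 50 weeks. The strains did not overlap, and in both strains both 50-week arrays were below both 10-week arrays. The mean of 1.69 ± 0.299 (SD, n = 4) in SAMP1 against 3.71 ± 0.245 (SD, n = 4) in SAMR1 made a difference of -2.02, a 4.07-fold lower signal. It was -1.99 at 10 weeks and -2.06 at 50 weeks, and -1.94 with normexp correction. The Thnsl2 probe had a processed signal of 505 to 880 in SAMP1, well above background on all 8 arrays.

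Smyd1, 10.4 kb beyond the Fabp1 probe, lies between these genes and the CD8 genes. Its brighter probe, A_51_P468055, read 0.59, 0.31, 0.36 and 0.4 on the SAMR1 arrays and 0.56, 0.33, 0.16 and 0.33 on the SAMP1 arrays, given in each strain as the 10-week and then the 50-week arrays. The strains overlapped, with a difference of -0.07. The other Smyd1 probe, A_55_P2062495, was well above background on no array. Of the 15 genes in a list of striated muscle markers, 4 were well above background on no array. The summed linear level of the 8 kept genes other than Smyd1, relative to the array's 75th percentile, was 0.838 to 2.25 in SAMR1 and 1.07 to 1.1 in SAMP1. Among these 8, Tnnt1 ran from -2.15 to 0.69 on the SAMR1 arrays and from -1.81 to -1.58 on the SAMP1 arrays.

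Cd8a, the alpha chain of the CD8 co-receptor, was the reverse of Fabp1: it was measured in all 4 SAMP1 kidneys and in none of the 4 SAMR1 kidneys. Probe A_52_P443334 read -1.93 and -1.71 in SAMP1 at 10 weeks and -1.96 and -2.51 in SAMP1 at 50 weeks. In SAMR1 it read -6.22 and -6.54 at 10 weeks and -6.61 and -7.68 at 50 weeks, and none of these was well above background. Probe A_52_P150547, 5 kb away, read -2.68, -2.82, -2.99 and -3.6 in SAMP1 and -7.84, -7.65, -6.78 and -7.53 in SAMR1, in the same order. Both probes put all SAMP1 arrays above all SAMR1 arrays, with gaps of 3.71 and 3.18.

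A fold for such a probe is only a bound, because the SAMR1 side is at background. The bound sets the mean of the SAMP1 arrays against the lowest signal that was well above background on each SAMR1 array, or the probe's own where higher. By this measure Cd8a was at least 11.4-fold higher in SAMP1 by A_52_P443334 and at least 5.69-fold higher by A_52_P150547. Under normexp correction the bounds were 1.9-fold and 1.4-fold, where the processed signal in SAMP1, 16.5 to 67.4, is near the size of the added offset of 50. In bulk tissue, more cells of a type and more RNA per cell cannot be told apart.

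Cd8b1, the beta chain, lies 36.9 kb before the nearest Cd8a probe. It was well above background on 3 of 4 SAMP1 arrays and on none of the 4 SAMR1 arrays. Its probe A_66_P122499 read -5.97, -5.56, -5.68 and -5.74 in SAMR1 and -5.26, -4.58, -5.08 and -5.47 in SAMP1, again 10-week arrays first. The strains did not overlap, but the gap was 0.09, smaller than the SD of 0.383 among the SAMP1 arrays. The bound was at least 1.35-fold higher in SAMP1, and 1.04-fold with normexp correction. The measured strain difference was 0.64 for Cd8b1, beside 4.73 and 4.43 for the Cd8a probes, with the SAMR1 side at background in each case.

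Mrpl35, the mitochondrial ribosomal protein gene at the far end of the stretch, had the same arrangement of arrays as Cd8a. Its probe read -3.31 and -3.15 in SAMP1 at 10 weeks and -3.06 and -2.87 in SAMP1 at 50 weeks. In SAMR1 it read -7.96, -7.75, -7.63 and -7.66, and none of these 4 values was well above background. All SAMP1 arrays were above all SAMR1 arrays with a gap of 4.33. The bound was at least 5.41-fold higher in SAMP1, and 1.41-fold under normexp correction, with a processed signal of 21.8 to 27.4 in SAMP1 and 0.948 to 0.961 in SAMR1. Only 1 probe reads this gene, so no second probe bears on it. Sequence differences between the strains under this probe were not looked up, so a low reading in SAMR1 does not show that the transcript is absent there.

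Reep1, whose probe lies 2.6 kb before that of Mrpl35, was well above background on 1 array alone, SAMR1 at 10 weeks replicate 1, where it read -5.26. On the other 7 arrays it lay between -6.74 and -5.84, and no comparison was made.

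Rmnd5a and Kdm3a, between Cd8a and Reep1, held similar levels in both strains on their brighter probes. Rmnd5a probe A_52_P200207 lay between -0.29 and -0.01 in SAMR1 and between -0.14 and -0.01 in SAMP1, and its second probe, A_55_P2131473, also overlapped, with a difference of 0.24. Kdm3a probe A_55_P1982578 read 0.53, 0.58, 0.43 and 0.42 in SAMR1 and 0.46, 0.48, 0.81 and 0.65 in SAMP1, which overlapped. The dimmer Kdm3a probe, A_51_P489406, lay 14.1 kb away and disagreed: it was lower in SAMP1 by a mean of 0.51, with a gap of only 0.02 between the strains and a difference of -0.14 under normexp correction.

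The slide held its arrays in 2 rows, each with 2 arrays per strain, and the strain differences had the same direction in both. They were -5.5 and -5.25 for Fabp1, -2.21 and -1.84 for Thnsl2, and 4.79 and 4.52 for Mrpl35. For Cd8a they were 4.1 and 4.75 on A_52_P150547 and 4.3 and 5.17 on A_52_P443334.

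**Figure D1:**
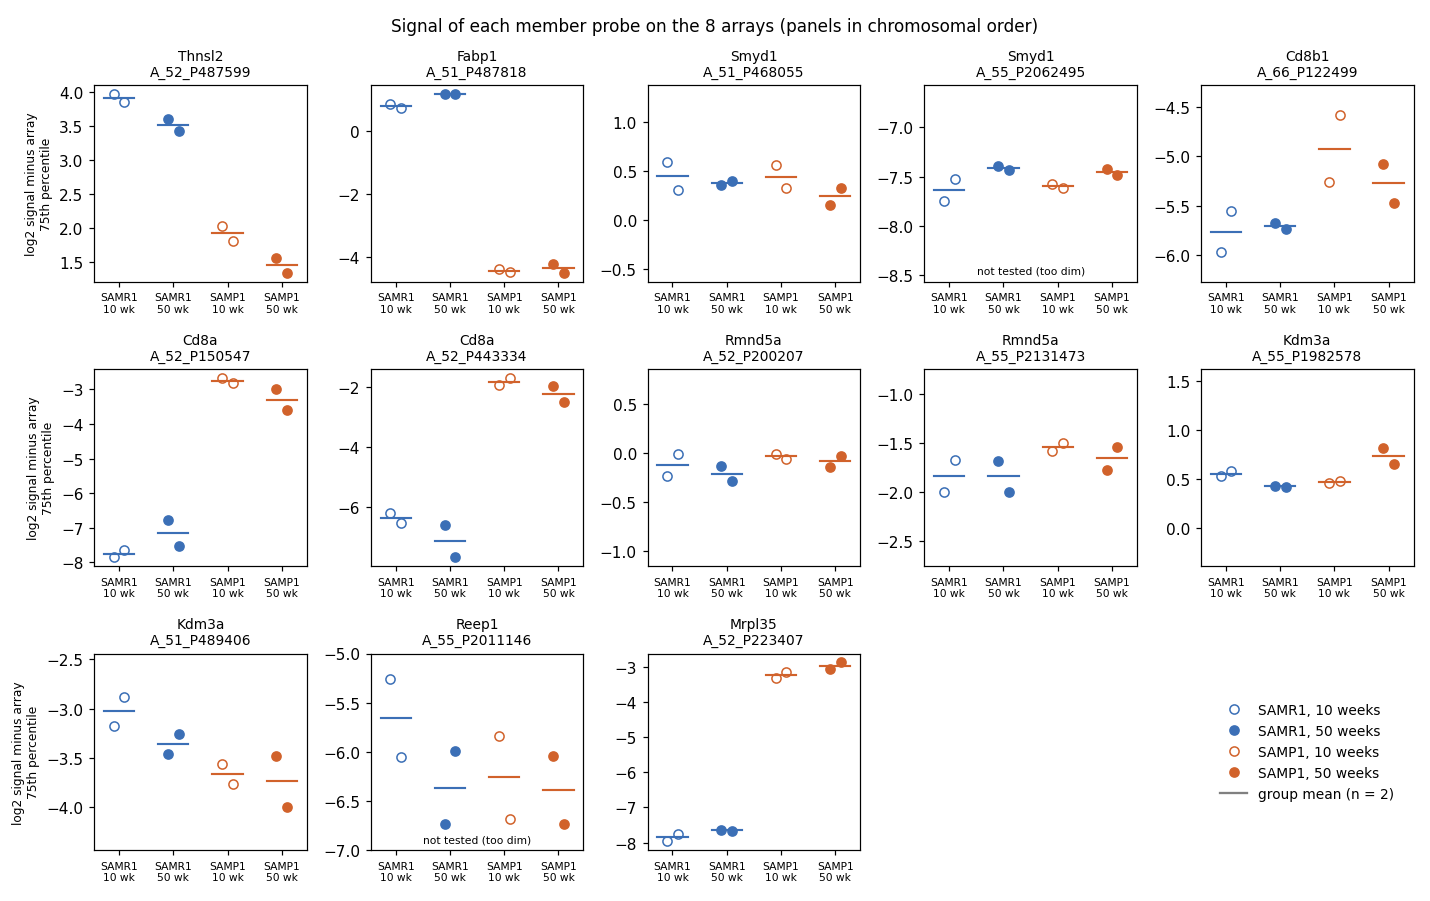
Signal of all 13 member probes (log2 minus the array's 75th percentile, vertical axis, scaled per panel) on the 8 arrays, by strain and age. Open and filled points are the 10-week and 50-week arrays and lines are group means of 2; the 4 SAMP1 points of Fabp1 and Thnsl2 lie below the 4 SAMR1 points, and those of Cd8a and Mrpl35 lie above them.

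Between the first and the last member, the array holds 13 kept probes of 6 other genes. None of them differed by more than 1, and 3 did not overlap: a Krcc1 probe at 0.82, an Rnf103 probe at 0.41 and a Chmp3 probe at -0.63. Each of these genes had at least 1 further probe with overlapping strains, at -0.21 for Krcc1 and from -0.11 to 0.12 for the other 4 Chmp3 probes.

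In the wider window from 70000000 to 73000000, the 93 kept probes that are no members included 26 (28%) with no overlap, 10 higher and 16 lower in SAMP1, against 13.2% over all kept probes. Before the first member this held for 3 of 30 kept probes, and after the last member for 20 of 50 (40%). The kept probes before the first member were mostly transcripts without a gene name, many with a wide spread within each strain. For example, 1 of them ran from 0.31 to 6.02 in SAMR1 and from -1.98 to 5.47 in SAMP1. The 3 without overlap were probes of Rpia and Eif2ak3. The shares before and after the members thus come from unlike sets of probes and are not compared. Beyond Mrpl35 the next genes were Immt, a gene of the mitochondrial inner membrane, at -0.43, Ptcd3, at -0.38 and -0.42, and Polr1a, the large subunit of RNA polymerase I, at 1.96 (above background on 4 of the 8 arrays) and 0.29. Farther on lay St3gal5 at -0.95, Ggcx, the vitamin K-dependent carboxylase, at -2.47, Retsat at 0.94, Mat2a at -0.55, Tmsb10 at 0.5 and 0.47, Usp39 at -0.57 and -0.44 and Elmod3 at -0.49 and -0.47. The others were Vamp8, Particl, Sh2d6, Tgoln2 and Kcmf1, from -0.6 to 0.54. Before Thnsl2, Rpia stood at -0.8, and the 2 probes of Eif2ak3 stood at 1.56 and -0.37, on opposite sides. Further kept probes of these genes had overlapping strains, at 0.23 for Rpia, -0.02 and -0.15 for Immt, 0.29 and -0.35 for Ptcd3, -0.06 for Usp39, -0.21 and -0.85 for Mat2a, -0.01 for Tmsb10, 0.09 for Sh2d6 and -0.09 for Kcmf1.

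**Figure D2:**
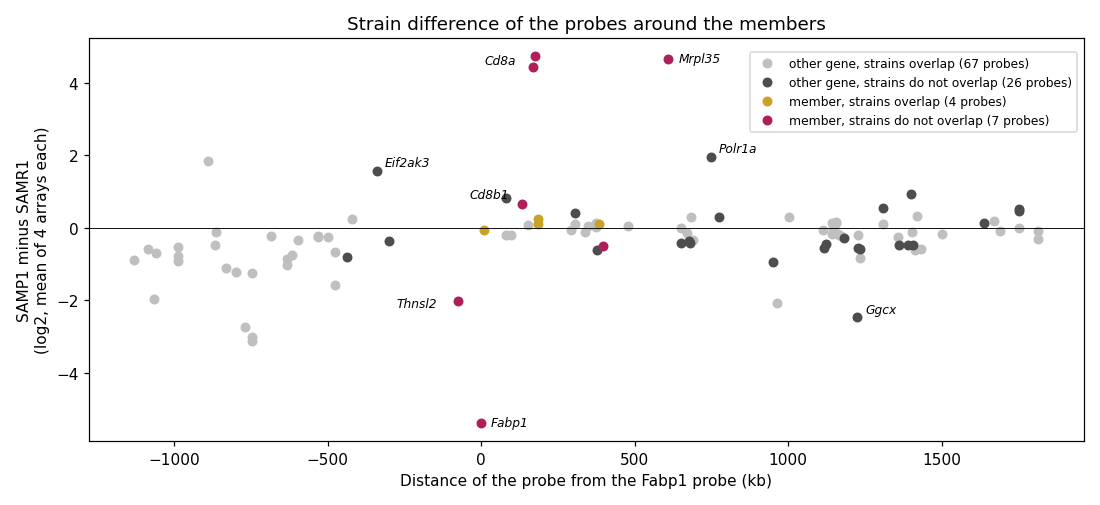
Mean SAMP1 minus SAMR1 difference (log2, vertical axis, 4 arrays per strain) of each kept probe against its distance from the Fabp1 probe in kb (horizontal axis). Magenta and yellow points are members and grey points other genes; the Fabp1 probe lies at -5.38 and the Cd8a and Mrpl35 probes at 4.43 to 4.73, where the SAMR1 side of Cd8a and Mrpl35 is at background and the height is no measure of the fold.

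No member changed with age by the test. Limma's moderated test with Benjamini-Hochberg adjustment over 35375 probes called 241 probes (0.681%) between the ages of SAMP1, 206 (0.582%) between those of SAMR1, 500 (1.41%) for age averaged over the strains and 1 (0.00283%) for the age by strain interaction. Among the 11 member probes it called 0 in each of these 4 contrasts. On simulated data the same fit recovered 52.2% of age changes of 1 (log2) in SAMP1, so changes of that size or less can be missed. At an unadjusted p under 0.05, the member probes numbered 2, 2, 3 and 2 of 11 in the same order, against 9.73%, 11.3%, 14.1% and 6.1% of all kept probes. The last 2 of these counts include Mrpl35, averaged over the strains, and Cd8a probe A_52_P150547, for the interaction. Both values use SAMR1 signals at background and are no measure of a change, so nothing is read from these counts.

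Thnsl2 came nearest to the threshold. Its mean over both strains was -0.43 at 50 weeks relative to 10 weeks (SE 0.095, 95% confidence interval -0.66 to -0.2), with limma's adjusted p = 0.113 and a lower value on both 50-week arrays in each strain. The change was -0.47 in SAMP1 (adjusted p = 0.316) and -0.4 in SAMR1 (adjusted p = 0.365) by the same limma fit. With normexp correction the mean change was -0.44 and its limma adjusted p was 0.00872, past the threshold, while over all alternatives that p ran from 0.00872 to 0.317. Age and the column of the slide cannot be told apart, since the 10-week arrays filled columns 1 and 2 and the 50-week arrays columns 3 and 4.

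Fabp1 stood higher at 50 weeks on both SAMR1 arrays, by 0.38 (SE 0.124, limma adjusted p = 0.345). In SAMP1 the age difference was 0.06 (limma adjusted p = 0.896), and the interval ran up to 0.36. The difference between these age changes was -0.31, with limma adjusted p = 0.836. For Mrpl35 the age difference in SAMP1 was 0.26 (limma adjusted p = 0.572). Both Cd8a probes stood lower on both 50-week SAMP1 arrays than on both 10-week ones, by 0.54 and 0.41 on average, and neither passed limma's test (adjusted p = 0.611 and 0.758). In SAMR1 the signals of Cd8a, Cd8b1 and Mrpl35 are at background, so their age values there, and the averages and interactions that use them, are no measure of a change.

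Kdm3a, on probe A_55_P1982578, stood 0.26 higher at 50 weeks in SAMP1 (limma adjusted p = 0.471) and 0.13 lower in SAMR1 (limma adjusted p = 0.67). Smyd1 and both Rmnd5a probes differed between the ages by 0.2 or less in either strain, with limma adjusted p from 0.692 to 0.994.

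**Figure D3:**
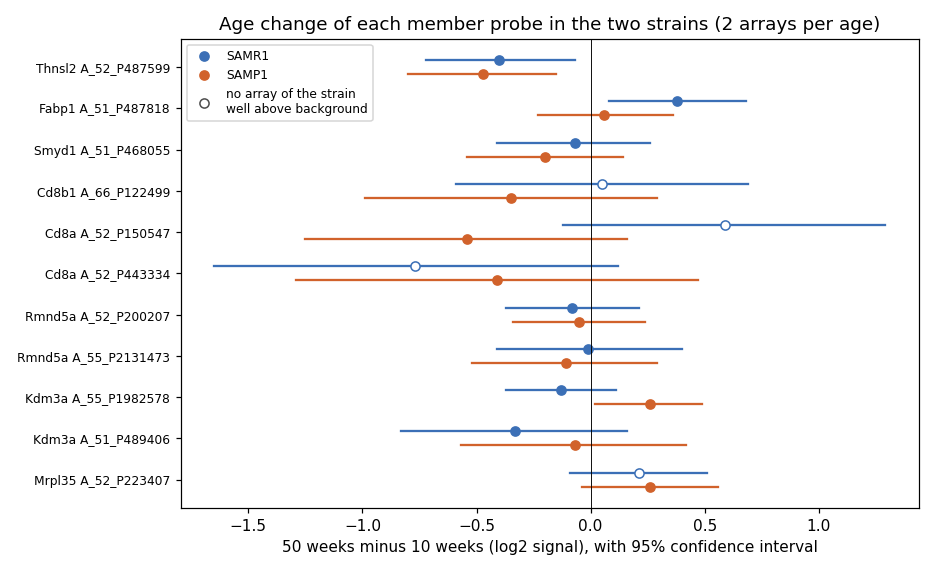
Change from 10 to 50 weeks (log2, horizontal axis) of the 11 fitted member probes in SAMR1 and SAMP1, with 95% confidence intervals from limma. Open points mark probes with no array of that strain well above background; the Thnsl2 intervals lie below 0 in both strains before adjustment, and no probe passed after it.

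Other genes of T cells are set beside Cd8a. Of 21 genes of T and cytotoxic cells, 20 were kept. All SAMP1 arrays were above all SAMR1 arrays for 5 of the 20 and below for none: Thy1 at 1.67, Nkg7, a cytotoxic granule gene, at 1.59, the receptor kinase gene Zap70 at 1.55, Cd6 at 0.98 and Cxcr6 at 0.83. Over all genes, with 1 probe per gene, 7.09% lay above and 6.6% below in this way. The list's median strain difference was 0.89, against -0.01 over all genes, and its summed linear level was 3.31 to 3.66 in SAMR1 and 4.19 to 6.73 in SAMP1. Its part in the Cd8a difference was not tested.

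Inside SAMP1, both 50-week arrays were above both 10-week arrays for 15 of the 20 T cell genes and below for none, against 20.8% above and 27.1% below over all genes. Both Cd8a probes read lower on both 50-week SAMP1 arrays, with no call by limma as given above, and the difference between Cd8a and the list in their age changes was not tested. Cd2, a T cell adhesion receptor, read -4.13 and -3.04 at 10 weeks and -1.54 and -1.87 at 50 weeks in SAMP1, against -4.19 to -3.94 in SAMR1. The pan-T-cell gene Cd3d likewise read -3.08 and -2.11 at 10 weeks and -1.12 and -1.49 at 50 weeks in SAMP1. The median difference of the list between the strains was 0.54 at 10 weeks and 1.1 at 50 weeks. None of the 20 genes passed limma's test for age in SAMP1, although 12 had an unadjusted p under 0.05, all 12 higher at 50 weeks, against 4.78% of all genes under that threshold and higher. Cd3e and Cd4 were level between the strains, at 0.15 and 0.05. Of 7 markers of dendritic cells, a cell type in which the alpha chain also occurs, 6 were kept, their median strain difference was 0.03 and all 6 overlapped.

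Other genes of the fatty acid binding family and of fatty acid handling are set beside Fabp1. Of 10 genes for fatty acid binding proteins, 7 were kept. Fabp1 was the only one with all SAMP1 arrays lower. Fabp2, the intestinal form, was higher in SAMP1, with arrays at -4.9 to -4.61 against -7.17 to -5.74 in SAMR1 and well above background on 4 of the 8 arrays. Fabp5 was higher by 0.38, and Fabp3, Fabp4, Fabp7 and Fabp12 overlapped, from -0.35 to 0.27. Among 22 kept genes of PPAR alpha and fatty acid handling, the median strain difference was -0.02. Genes of this list with a strain difference near 0 were Cpt1a, at 0, and Hadha, at 0. With age, 1 of the 22 passed: Creb3l3 rose over both strains by 1.7 (limma adjusted p = 0.0417), and this call was lost with quantile normalization, no filter on dim probes or the slide row as a covariate, and on leaving out any 1 array other than SAMR1 10-week replicate 4 and SAMP1 10-week replicate 5, with limma adjusted p from 0.0508 to 0.128 in these settings. With normexp correction the rise of Creb3l3 was 0.87 (limma adjusted p = 0.00146).

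Fabp1 is also abundant in liver and intestine, so markers of both were read. Of 8 hepatocyte genes, 5 were kept, with Alb at -0.11 and overlapping. In this list Serpina1a, a protease inhibitor that kidney also expresses, was higher in SAMP1 by 1.8 and Cps1 by 0.21, and none was lower. Cps1 was well above background on only 4 of the 8 arrays, and its difference was 0.01 with normexp correction. In the same list 3 genes were well above background on no array. The summed linear level was 50.8 to 81.7 in SAMR1 and 55.9 to 73.6 in SAMP1. This sum mostly follows Ttr, with a mean of 5.85 in SAMR1 and 5.82 in SAMP1, and says little about the other genes. Of 6 enterocyte genes, 3 were kept, Fabp2 was higher in SAMP1, and the sum was 24.9 to 28.9 in SAMR1 and 24.6 to 27 in SAMP1. The enterocyte sum mostly follows Vil1, with a mean of 4.69 in SAMR1 and 4.65 in SAMP1.

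Mrpl35 is set beside the other 48 genes of the mitochondrial large ribosomal subunit, all of them kept. Even in SAMP1 the Mrpl35 probe was dim, with a mean of -3.1. The lowest SAMP1 mean among the 48 was 0.38, for Mrpl19, although the scale does not strictly allow a comparison between probes. In 2 of the 48 the SAMP1 arrays were all higher, Mrpl16 at 0.37 and Mrpl14 at 0.31, and in 4 all lower, with Mrpl41 at -1.32, Mrpl53 at -0.62, Mrpl20 at -0.4 and Mrpl12 at -0.15. The median of the 48 was -0.05, and none of them passed limma's test for age in either strain or on average; 2 of the 49 with Mrpl35 had an unadjusted p under 0.05 for age on average and 0 in either strain alone.

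The relatives of the remaining members are given by counts. Of 10 further CTLH ligase genes only Wdr26 did not overlap, at 0.14. Of the other 4 SMYD genes, Smyd3 was higher by 0.19 and Smyd2 lower, at -0.27. Of 9 other kept demethylases of histone H3 lysine 9, Kdm1a was lower, at -0.36. Of 14 kept genes that shape the endoplasmic reticulum, Reep6 and Arl6ip1 were lower, at -0.57 and -0.25. Thnsl1, the paralogue of Thnsl2, overlapped at -0.41. Among 13 kept hypoxia-inducible genes other than Kdm3a, Car9 and Adm were higher in SAMP1, at 1.16 and 0.36, and Egln3 and Vegfa lower, at -0.59 and -0.16. Car9, a carbonic anhydrase, rose with age in SAMP1 by 0.96 (limma adjusted p = 0.0304), a call lost with no filter on dim probes or the slide row as a covariate, and on leaving out any 1 array other than the SAMR1 50-week ones, with adjusted p from 0.0588 to 0.199. It also rose on average over the strains by 0.83 (limma adjusted p = 0.00797). In the other lists of this paragraph limma called 0 genes for age in any contrast, and at most 3 genes of a list had an unadjusted p under 0.05.

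**Figure D4:**
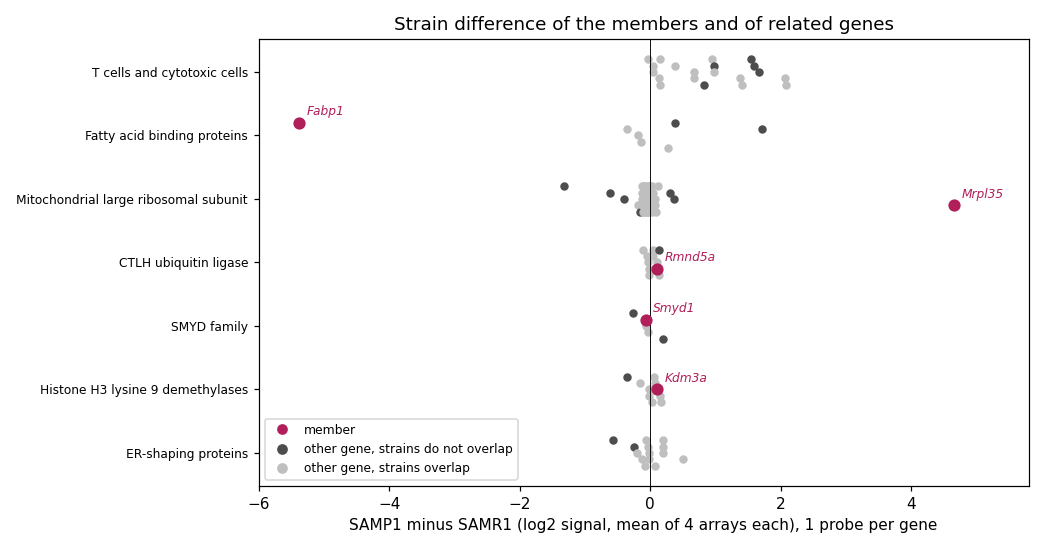
SAMP1 minus SAMR1 difference (log2, horizontal axis, 4 arrays per strain) of each kept gene of the related lists named on the vertical axis, 1 probe per gene. Magenta points are members and dark grey points are other genes with no overlap between strains; Fabp1 at -5.38 and Mrpl35 at 4.66, with its SAMR1 side at background, lie outside the range of their families, and Rmnd5a, Smyd1 and Kdm3a lie within theirs.

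Probes elsewhere in the genome whose pattern was most like a member's were searched over 35364 kept probes, by Pearson's r over the 8 arrays. The 8 arrays fall into 2 strains, a split that these probes share, and r is given as a measure of likeness alone. For Fabp1 the nearest were Pik3c2g on chromosome 6 (r = 0.9995), Zfp33b on chromosome 5 and Ankrd65 on chromosome 4 (both 0.9989), with strain differences of -3.75, -5.52 and -5.33; the last 2 were well above background on 4 of the 8 arrays. For Thnsl2 they were Gmpr (0.9953), Entpd2 (0.9951) and Tcea3 (0.9945), on chromosomes 13, 2 and 4. For Cd8a they were Tmem107 (0.9969), Klhdc9 (0.9961) and Casp9 (0.9958). For Mrpl35 they were Zfp971 (0.9998), Gabra3 (0.9995) and Zfp972 (0.9977), each well above background on 4 of the 8 arrays. For Cd8b1 they were Armh3, Lmtk3 and Slc27a5, from 0.9375 to 0.9698, and for Kdm3a probe A_51_P489406 they were Reep6, an unnamed transcript of chromosome 17 and Pigk, from 0.9759 to 0.9815.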

How the data were processed

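RNA from the kidney cortex of 8 male mice was read on 8 arrays of 1 slide in 1 scan. The submitters' processing notes name Agilent Feature Extraction 12.0.3.1 as the tool behind the deposited spot intensity values. The processed intensity, per the file headers, is background-subtracted within its array and not scaled between arrays, and the mean and background intensity columns are uncorrected. A table of log2 values was deposited too, and its making is not given in the sources used here. Its columns correlated at 0.99896 to 0.99929 with the scaled values described next after centring each probe, so its scale, centring and direction were settled; its column medians ran from -0.048 to 0.0591. The file headers give mm9 for the coordinates of the probes.

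From these files, log2 processed intensity minus the 75th percentile over the probes that were not controls was taken, spots marked as outliers (102 to 161 of 59305 per array) were left out, and spots of 1 probe were averaged. No spot was saturated. Probes not well above background on each array of some group were dropped, which left 35375 of 56605, with 5 dropped for outlier marks. Limma 3.58.1 in R 4.3.3 fitted the 4 group means (residual df 4, prior df 2.37) with Benjamini-Hochberg adjustment at 0.05, and the fit was tested on simulated data. There it recovered 35 of 67 age changes of 1 (log2) in SAMP1, or 52.2%. It recovered 82.1% of changes of 2 and 97% of changes of 4, with 11 false calls. For lists, the probe with the highest mean stands for a gene. Of the 13 member probes, 12 matched RefSeq (GRCm38.p6) by accession, with the same symbols. Sequence differences between the strains under the probes were not looked up. Some genes of the lists are not reported here.

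The members and gene lists were chosen with earlier results of these data known. Named beyond the members are: genes of the window from 70000000 to 73000000 whose 4 SAMP1 and 4 SAMR1 arrays do not overlap; the 3 genes most like each such member; and, from 15 gene lists, up to 3 genes by smallest p, and others picked after their values were seen. Alternatives were normexp background correction (offset 50), quantile normalization, the deposited value table, no or a strict filter on dim probes, the slide row as a covariate, 1 probe per gene, and each array left out in turn.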

Additional observations from a re-analysis of the deposited data

Results flagged for a closer look

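A pair of member probes moved in opposite directions with age in the strains, on every array. Cd8a probe A_52_P150547 was lower at 50 weeks on both SAMP1 arrays and higher on both SAMR1 arrays, an age by strain interaction of -1.13 on the log2 scale, where none of the 4 SAMR1 arrays was well above background. Kdm3a probe A_55_P1982578 was higher at 50 weeks on both SAMP1 arrays and lower on both SAMR1 arrays, an interaction of 0.39. Neither passed limma's test of the interaction, with adjusted p = 0.8 for Cd8a and 0.793 for Kdm3a. The second Cd8a probe and the second Kdm3a probe did not show the pattern, with interactions of 0.36 and 0.26. Groups of 2 arrays are too small for a test of outlying arrays.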

How the results depend on the processing

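The strain differences of Fabp1 and Thnsl2 (averaged over ages) kept their direction under all 15 alternatives, from -5.45 to -2.71 and from -2.08 to -1.94; those of Cd8a and Mrpl35 kept theirs wherever the probe was kept, from 0.52 to 5 and from 0.56 to 4.71. The strict filter leaves out Cd8a, Cd8b1 and Mrpl35, and 1 probe per gene leaves out the dimmer probes, which have no value there. Under the strict filter 3 member probes did not overlap, against 7 in the main setting and 7 to 8 with each array left out. The number was 5 with normexp correction, 6 with quantile normalization and 5 with 1 probe per gene. Age values of the members, all uncalled, changed sign by more than 1 SE under normexp correction for Cd8b1 (0.03 in SAMP1, 0.09 averaged), Cd8a A_52_P443334 (0.12 in SAMR1, -0.28 interaction) and Kdm3a A_51_P489406 (0.02 in SAMR1, 0.05 averaged). The Cd8b1 value in SAMP1, -0.35 in the main setting, uses SAMP1 arrays alone. The other values given here for Cd8b1 and Cd8a use SAMR1 signals at background and are no measure of a change. With single arrays left out, the values ran from -0.18 to 0.9 for the interaction of Cd8a A_52_P443334 (lowest without SAMR1 50-week replicate 12), from -0.08 to 0.2 for Fabp1 in SAMP1 (lowest without SAMP1 50-week replicate 1), from -0.33 to 0.19 for Kdm3a A_51_P489406 in SAMP1 (highest without SAMP1 50-week replicate 4) and from -0.03 to 0.21 for the strain difference of Rmnd5a A_52_P200207 at 10 weeks (lowest without SAMR1 10-week replicate 1). A further 33 uncalled age values changed sign by less than 1 SE. The cause was not tested.

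Counts of calls over all probes moved more. Age calls in SAMP1 (241) came to 140 without a filter, 101 with the strict filter and 151 with slide row; those in SAMR1 (206) to 487 with normexp, 110, 62 and 130 in the same order; those averaged over strains (500) to 1303 with normexp and 271 with the strict filter. The interaction (1) had 26 calls with normexp, 0 with the strict filter (fewer probes tested) and 2 with quantile normalization, the value table, slide row or 1 probe per gene. With each array left out, age calls ran from 42 to 176 in SAMP1 (lowest without SAMP1 10-week replicate 4), 50 to 201 in SAMR1 (lowest without SAMR1 50-week replicate 12), 258 to 373 averaged and 1 to 3 for the interaction, and strain calls from 434 to 928 at 10 weeks, 710 to 1334 at 50 weeks and 1703 to 2211 averaged; a lone array is assumed to vary like the other groups. Differences next to background are limited by the signal, as for Cd8b1. No paired analysis was possible because the groups compared share at most 1 replicate number.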
